A study of Mus musculus with 11 samples.

Results

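The open chromatin at gene promoters was compared across 4 subsets of mouse CD4 T cells, using the ATAC-seq peak table of the study. In ATAC-seq a transposase cuts accessible DNA and the cut fragments are sequenced. A promoter peak was taken as any peak on chromosomes 1 to 19 whose centre lay within 1000 bases of the start site of a RefSeq transcript (NM or NR accession) on GRCm38 (mm10). The rule used position only, and it found 12352 of the 38509 peaks (32.1%), nearest to 10440 genes, of which 1631 had several promoter peaks. Of these, 12346 had enough reads to be tested. The 414 promoter peaks on chromosomes X and Y, which include the locus of Foxp3, were not members. Naive cells (2 libraries) were CD44low. Effector cells (Teff, 3 libraries) were CD44high, FOXP3-, CD73low and FR4low. Anergic cells (3 libraries) were CD44high, FOXP3-, CD73high, FR4high and NRP1+, and regulatory cells (Treg, 3 libraries) were FOXP3+ and CD25+. All 4 groups came from untreated wildtype C57BL/6 mice that carry a Foxp3-GFP reporter and have a polyclonal repertoire. All were isolated fresh from spleen and lymph nodes mixed together, with 50000 cells per library. The age of the mice, and whether animals were pooled, are not given in the sources used here. Nothing in the labels says that the libraries of a group came from separate animals, so the p-values below measure the spread between libraries, which may be partly technical. Because each library is a bulk sample, fewer cells with an open promoter and less opening per cell cannot be told apart.

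A promoter is the stretch of DNA around a transcription start where RNA polymerase II and its general factors assemble. Many mammalian promoters lie in CpG islands, where the dinucleotide CG is kept at high density, and such promoters are often nucleosome-depleted in most cell types. Promoters poor in CG tend to be those of tissue-restricted genes. Naive CD4 T cells are quiescent recirculating cells, and effector cells have met antigen and can make inflammatory cytokines. Anergic cells persist after antigen contact without full function, while Treg cells are FOXP3-dependent suppressors.

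The stretches of 200 bases upstream of the start sites of 9 promoters are printed here because they show the contrast in CG content between promoters that stayed constant and promoters that differed. They are RefSeq sequence on GRCm38, 5′ to 3′ on the strand of the gene, with each CG in capitals. None overlaps an annotated exon and each lies wholly within the peak. They were chosen after their values were seen. The first 2 belong to promoters that were constant over the subsets, with 16 and 22 CG, at chr5:3543633-3543832 (plus strand) and chr16:92466170-92466369 (minus strand).
Fam133b: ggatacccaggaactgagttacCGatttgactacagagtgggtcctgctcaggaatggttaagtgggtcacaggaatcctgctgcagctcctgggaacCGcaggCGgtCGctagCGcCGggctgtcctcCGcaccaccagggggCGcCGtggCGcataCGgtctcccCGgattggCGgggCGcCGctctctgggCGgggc
Rcan1, outer promoter: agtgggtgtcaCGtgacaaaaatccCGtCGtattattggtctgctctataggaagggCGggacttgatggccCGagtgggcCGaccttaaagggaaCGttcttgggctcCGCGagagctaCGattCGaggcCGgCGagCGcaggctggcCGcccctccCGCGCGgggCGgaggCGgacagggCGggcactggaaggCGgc
The other 7 belong to promoters that differed by at least 2-fold. The inner promoter of Rcan1, a feedback inhibitor of calcineurin, is at chr16:92400079-92400278 (minus strand, 9 CG). That of Il21, a helper T cell cytokine, is at chr3:37232637-37232836 (minus strand, 5 CG). Ifng, the interferon gamma gene, is at chr10:118440846-118441045 (plus strand, 5 CG). Nkg7, a cytotoxic granule protein, is at chr7:43436938-43437137 (plus strand, 2 CG). An internal promoter of Foxp1, a repressor that keeps T cells quiescent, is at chr6:99435346-99435545 (minus strand, 3 CG). Lrrc32, which encodes the TGF-beta docking receptor GARP, is at chr7:98489791-98489990 (plus strand, 20 CG). Rgs16, a brake on G protein signalling, is at chr1:153740153-153740352 (plus strand, 15 CG).
Rcan1, inner promoter: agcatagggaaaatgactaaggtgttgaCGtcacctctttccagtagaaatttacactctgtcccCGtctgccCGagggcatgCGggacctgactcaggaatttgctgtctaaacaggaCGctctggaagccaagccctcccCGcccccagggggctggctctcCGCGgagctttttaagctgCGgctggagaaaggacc
Il21: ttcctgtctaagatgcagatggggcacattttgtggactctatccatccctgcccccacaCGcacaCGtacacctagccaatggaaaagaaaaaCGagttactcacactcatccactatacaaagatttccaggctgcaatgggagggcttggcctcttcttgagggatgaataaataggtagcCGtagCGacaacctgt
Ifng: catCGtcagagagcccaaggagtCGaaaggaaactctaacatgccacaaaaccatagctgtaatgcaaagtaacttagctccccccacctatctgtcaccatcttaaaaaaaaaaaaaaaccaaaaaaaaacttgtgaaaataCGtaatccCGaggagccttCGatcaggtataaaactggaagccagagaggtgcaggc
Nkg7: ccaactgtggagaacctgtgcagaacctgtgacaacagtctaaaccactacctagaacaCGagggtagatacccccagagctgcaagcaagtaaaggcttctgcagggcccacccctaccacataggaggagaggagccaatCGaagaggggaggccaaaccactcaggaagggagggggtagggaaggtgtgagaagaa
Foxp1: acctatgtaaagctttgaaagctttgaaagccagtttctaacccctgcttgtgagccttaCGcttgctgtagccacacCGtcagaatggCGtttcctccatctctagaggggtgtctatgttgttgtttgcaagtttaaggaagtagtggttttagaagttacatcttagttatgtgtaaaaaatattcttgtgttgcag
Lrrc32: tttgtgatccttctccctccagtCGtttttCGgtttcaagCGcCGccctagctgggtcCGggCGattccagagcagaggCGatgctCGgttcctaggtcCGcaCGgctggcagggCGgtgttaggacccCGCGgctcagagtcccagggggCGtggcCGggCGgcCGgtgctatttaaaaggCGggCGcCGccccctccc
Rgs16: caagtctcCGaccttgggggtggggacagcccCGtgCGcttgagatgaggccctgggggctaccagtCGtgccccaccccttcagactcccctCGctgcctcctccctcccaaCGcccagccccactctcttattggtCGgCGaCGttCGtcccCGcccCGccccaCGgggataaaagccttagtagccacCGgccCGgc
Lrrc32 and Rgs16 show that a promoter with many CG could also differ between subsets. Over all 12346 tested promoters the median number of CG in this window was 14, over the constant ones it was 17 and over those that differed by at least 2-fold it was 9. The window of Nkg7 held the T-box letters AGGTGTGA 14 bases before the start site, letters that 0.470% of all promoter windows held on either strand. The window of Ifng held TATAAA 30 bases before the start site (4.14% of all windows). That of Il21 held the NFAT letters TGGAAA at 119 and 74 bases (10.1% of all windows). The inner Rcan1 window held the AP-1 letters TGANTCA at 110 bases (2.88% of windows), the CRE letters TGACGTCA at 175 bases (2.82% of windows) and TGGAAA at 163 bases. A match is a description of the letters and not evidence of binding.

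The deposited value of a peak, called signal here, was the number of reads in it multiplied by 1 factor per library. The libraries held 14.7 M to 68.8 M reads in peaks, with a median of 502 to 2285 reads per promoter peak. The depth limits mainly the weakest promoters. In each library 3 to 15 promoter peaks stood at 1 read, and the sources used here do not state how a peak that got no read was entered. The median promoter signal ran from 1216 to 1252 in naive, 1177 to 1242 in Teff, 1149 to 1274 in anergic and 1069 to 1150 in Treg libraries. The lowest value was that of Treg 2, the shallowest library, and the anergic and Treg ranges met. Of 8 CD4 T cell marker genes, Trac had no NM or NR start site in the annotation used, so it could have no promoter peak. Promoters of the other 7 had a peak. Their summed signal was 10002 to 10573 in naive, 11285 to 11866 in Teff, 10422 to 12101 in anergic and 8276 to 8744 in Treg libraries. Of 10 B cell markers, Ebf1 alone had a promoter peak, with a signal of 63.4 to 92.9 in naive, 64.4 to 102 in Teff, 73.3 to 113 in anergic and 145 to 171 in Treg libraries. Its Treg libraries lay above all others and it was called higher in Treg than in each other subset, though not against naive without naive 1. The part of B cells in the Treg promoters was not tested. None of 8 erythroid and platelet markers had one. Of 10 myeloid markers, Cd68, Cebpa and Spi1 had one. Their sums were 485 to 537 in naive, 880 to 1188 in Teff, 2697 to 2827 in anergic and 978 to 1107 in Treg libraries. Lyz2, Csf1r, Itgam, Fcer1g, Clec7a, Tyrobp and Flt3 had none. Of 8 markers of CD8, NK and innate-like T cells, Cd8b1, Xcl1 and Zbtb16 had one. Their sums were 1139 to 1201, 1218 to 1801, 291 to 501 and 785 to 849 in the same order. Some markers of other cell types without a promoter peak were the gene nearest to other peaks. There were 11 such peaks for Klrb1c, 6 for Tyrobp, 4 for Cd79b and 3 for Itga2b. Itgam, Fcer1g, Cd22, Blnk and Klf1 had 1 each, and the rest of these markers had none.

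Promoter peaks differed between the subsets less often than other peaks, and those that moved by a large factor were mostly weak ones. By a moderated F test over the 4 groups (limma on log2 of signal plus 1, Benjamini-Hochberg over all 38493 tested peaks, threshold 0.05), 6388 promoter peaks (51.7%) differed, against 66% of all peaks and 73.3% of the other autosomal peaks. A difference of at least 2-fold between 2 subsets was found at 1694 promoters (13.7%, against 41.6% of all peaks and 55.6% of the other autosomal peaks), and of at least 4-fold at 473. The 4-fold count was not made over all peaks. A promoter was called constant where the 95% intervals of all 6 pairwise differences lay within 1.5-fold. This was met by 4084 promoters (33.1%, against 12.4% of all peaks and 2.17% of the other autosomal peaks). Intervals this narrow are rarer at weak peaks, and the median signal was 1206 at promoters and 151 at the other autosomal peaks. The part of signal in this contrast was not tested. Of the constant promoters, 701 also passed the F test, with differences that were reproducible but small. A further 2575 promoters met neither criterion, so nothing can be said of their constancy. With the bound widened to 2-fold, 8617 promoters were constant. The constant promoters had a median within-group SD of 0.11 on the log2 scale, those changed by at least 2-fold 0.27 and all promoters 0.15. It was 0.28 at the other autosomal peaks. The share of a library's reads that fell in promoter peaks was 73.9% ± 0.94 (SD, n = 2) in naive, 72.5% ± 0.576 (n = 3) in Teff, 72.7% ± 1.24 (n = 3) in anergic and 71.9% ± 1.15 (n = 3) in Treg cells. Both naive libraries lay above all Teff and Treg libraries, and the anergic range reached into theirs. The difference among the 4 groups did not pass an exact two-sided permutation test over all 92400 assignments of libraries to groups (p = 0.285).

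The 5 constant promoters of highest signal were those of Impact, a regulator of translation, of 4930526I15Rik, of the zinc finger factors Klf13 and Sp1, which bind GC-rich DNA, and of Cic, a transcriptional repressor. Sp1 had a signal of 21825 ± 317 in naive, 19988 ± 1982 in Teff, 20993 ± 606 in anergic and 17438 ± 2024 in Treg cells (mean ± SD), and the largest pairwise log2 difference among its groups was -0.33 for Treg against naive. The size of the largest difference at Sp1 ran from 0.12 to 0.39 over the alternatives, with the smallest value under quantile scaling. All 5 passed the F test as well, their differences being smaller than 1.5-fold, and the log2 difference of Treg from naive at Klf13, -0.37 ± 0.09 (SE), was the largest of them. Fam133b (chr5:3543456-3544307, centre 48 bases downstream of the start site and in a 5′ UTR) had the narrowest range among promoters above the median signal. The Fam133b signal was 1696 and 1795 in naive, 1786, 1767 and 1695 in Teff, 1802, 1605 and 1881 in anergic and 1728, 1558 and 1980.3 in Treg cells. The 4 groups overlapped throughout, with a log2 difference of 0.01 ± 0.12 between anergic and naive. Kif5b, a kinesin heavy chain, Zfp950, and Urod, an enzyme of haem synthesis, were also among the 5 of the narrowest range. Their group means ran from 1424 to 1439, 1347 to 1367 and 1467 to 1493.

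Constant and changed promoters differed in sequence, width and strength. The median ratio of observed to expected CpG in the 300 bases around the peak centre was 0.887 at promoters that were constant and did not pass the F test and 0.515 at those changed by at least 2-fold. Of these classes 91.0% and 42.1% were CpG-rich (a ratio of at least 0.6), against 73.2% of all promoters. The median signal was 2522 against 169.5 and the median peak width 1142 against 333 bases. Signal and CpG content go together, and weak peaks are measured with larger error. Promoters were therefore split by both, into 4 equal classes of mean signal and by CpG. In the class of lowest signal, 32.9% of the CpG-rich and 38.8% of the CpG-poor changed by at least 2-fold. In the next class the shares were 10.4% and 25.6%, in the next 2.53% and 8.96%, and in the class of highest signal 0.528% and 2.83%. In each class of signal, then, the CpG-poor promoters had the larger share of 2-fold differences, and the share fell with signal in both. The classes are wide, the lowest running from 5.29 to 293. In each class the CpG-poor also had the larger median SE for anergic against naive, 0.298 against 0.268 in the lowest. The split therefore does not hold signal and error equal. The share called constant rose with signal, from 0.838% of the CpG-rich and 0.423% of the CpG-poor in the lowest class. In the highest class it was 66.1% and 53.8%. Of promoter peaks centred within 100 bases of the start site 11.2% changed by at least 2-fold and 37.3% were constant. At 501 to 1000 bases 29.5% changed and 10.1% were constant. The median signals were 1376 and 129.5. The window itself had no sharp edge, with 272 promoter peaks at 901 to 1000 bases and 288 other peaks at 1001 to 1100 bases.

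**Figure D1:**
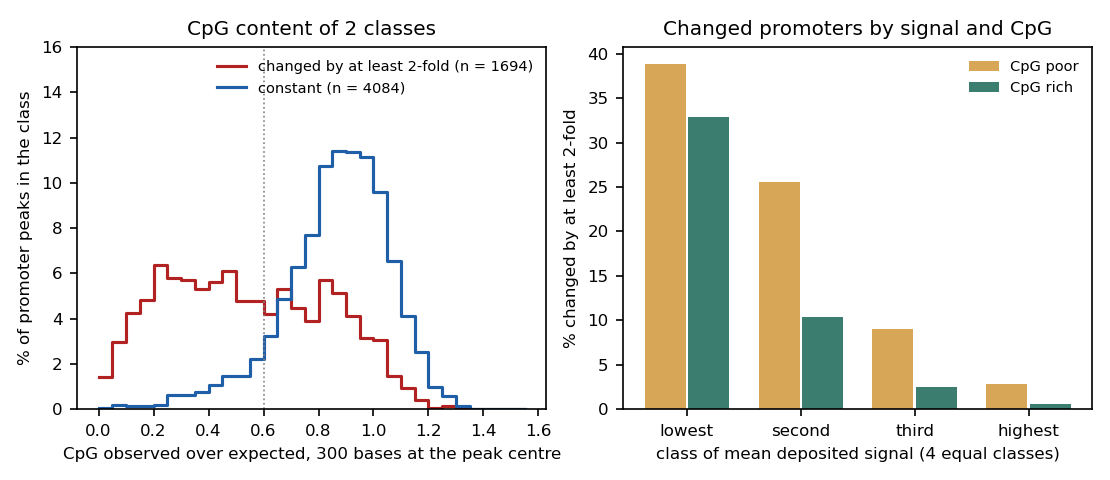
Left, the ratio of observed to expected CpG in the 300 bases around the peak centre (x axis) against the share of promoter peaks (y axis, %) for 1694 promoters changed by at least 2-fold (red) and 4084 constant ones (blue), with the CpG-rich bound of 0.6 dotted. Right, the share of promoters changed by at least 2-fold (y axis, %) in 4 equal classes of mean deposited signal (x axis, lowest to highest), which falls from 32.9% to 0.528% for CpG-rich and from 38.8% to 2.83% for CpG-poor promoters.

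Short motifs were counted in the 300 bases around each promoter peak's centre, on both strands. The AP-1 letters TGANTCA were in 10.6% of promoters changed by at least 2-fold, in 2.5% of constant ones and in 4.9% of all. Within the CpG-poor promoters they were in 14.7% of those changed by at least 2-fold and 10.2% of all, and within the CpG-rich ones in 5.0% and 2.9%. Letters of factors that act at housekeeping promoters were less frequent in changed promoters than in constant ones. The ETS letters CCGGAAG were in 4.4% of changed, 18.6% of constant and 14.8% of all promoters. The SP/KLF letters GGGCGGG were in 30.5%, 51.3% and 42.1%, and the YY1 letters AAGATGGC in 1.2%, 6.6% and 4.3%. Within the CpG-rich promoters CCGGAAG was in 6.17% of changed and 17.8% of all, and AAGATGGC in 1.26% and 5.26%. GGGCGGG was there in 51.9% of changed and 50.8% of all, so its share did not differ in that direction once CpG-rich promoters were taken alone. Among promoters highest in Teff, the T-box letters AGGTGTGA were in 4.5% (0.7% of all) and the RUNX letters TGTGGTT in 11.6% (4.0% of all). TGANTCA was in 11% of the promoters highest in anergic cells and of those lowest in naive cells, and in 10.6% of those highest and 10.1% of those lowest in Teff. It was in 2.89% to 4.67% of the other 4 classes. No test was made of these shares, which also follow the base composition of each class.

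In pairs of subsets, the promoters that changed by at least 2-fold were more often higher than lower in each other subset against naive. Teff against naive gave 602 higher and 240 lower by at least 2-fold (all peaks 15.4% and 8.01%). Anergic against naive gave 835 and 446 (all peaks 17.9% and 13.9%), and Treg against naive 623 and 174 (all peaks 15.4% and 7.71%). Without the fold limit the counts were 1543 higher and 1549 lower for Teff against naive (all peaks 22.7% and 17.4%). They were 1881 and 2068 for anergic against naive (all peaks 25.3% and 25.1%) and 1384 and 3459 for Treg against naive (all peaks 22.3% and 23%). The 3 comparisons share the 2 naive libraries. The median log2 difference of all promoters in Treg against naive was -0.13. Many of the 3459 were small shifts, and that count depends on the scaling of the libraries. With libraries scaled by their total reads in peaks it became 2365 higher and 1866 lower, with factors from promoter peaks alone 2215 and 2036, and with quantile scaling 2026 and 1783. Teff against naive became 1971 and 1297 with total reads and 1962 and 1292 with factors from promoter peaks.

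Among the 3 subsets other than naive fewer promoters differed by a large factor. Anergic against Teff gave 973 promoters higher and 1017 lower (all peaks 15.9% and 16.8%), of which 287 and 208 by at least 2-fold (all peaks 9.53% and 8.13%). Anergic against Treg gave 2549 higher and 866 lower (all peaks 19.4% and 14.8%), with 210 and 228 by at least 2-fold (all peaks 7.36% and 6.89%). Treg against Teff gave 737 higher and 2169 lower (all peaks 14.4% and 18.2%), with 228 and 177 by at least 2-fold (all peaks 7.2% and 6.68%). The imbalance of both Treg comparisons was again one of small shifts. For anergic against Treg, scaling by total reads gave 1325 higher and 1550 lower, factors from promoter peaks 1652 and 1322, and quantile scaling 1464 and 1636. For Treg against Teff the same scalings gave 1255 and 1303, 1132 and 1441, and 1431 and 1366. There edgeR on the recovered reads gave 971 and 1573. The median size of a called log2 difference at promoters ran from 0.45 (anergic against Treg) to 0.69 (anergic against naive), and from 1.02 to 1.49 at the other autosomal peaks. Several counts lean on 1 library. Without naive 1, 649 promoters were lower and 954 higher in Teff than in naive. In Treg against naive 1981 were then lower and 886 higher, and in anergic against naive 1248 were lower. Without naive 2, the lower promoters were 837 in Teff, 2168 in Treg and 1304 in anergic cells. Without Teff 2, 647 promoters were lower in anergic than in Teff and 1137 lower in Treg than in Teff. Without anergic 3, 1578 were higher in anergic than in Treg.

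**Figure D2:**
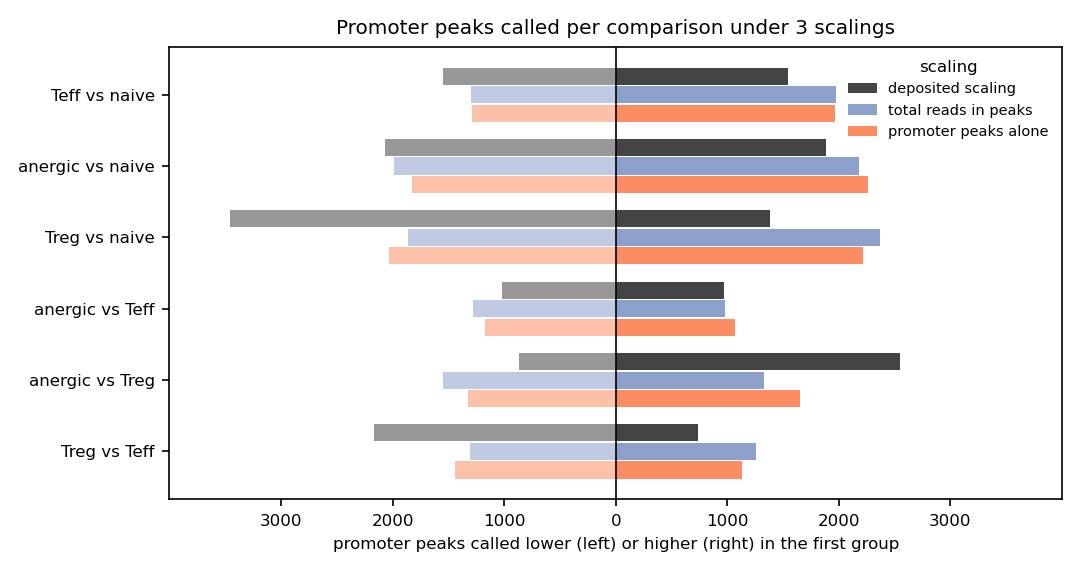
Number of promoter peaks called higher (right) or lower (left) in the first-named subset of each comparison (x axis, number of peaks; y axis, comparison), for the deposited scaling (grey), total reads in peaks (blue) and factors from promoter peaks alone (orange). For Treg against naive the bars show 1384 higher and 3459 lower under the deposited scaling and 2365 and 1866 under total reads. No bar has an error because each is a count from 1 fit.

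Of the 1694 promoters changed by at least 2-fold, naive cells had the lowest group mean on the log2 scale in 55% and the highest in 26.8%, and anergic cells the highest in 39.2% and the lowest in 26.2%. Across the scalings tried, the share lowest in naive was 42.3% to 59.9% and the share highest in anergic 35.4% to 39.6%. The most frequent order was naive < Teff < Treg < anergic (343 promoters, 20.2%), followed by naive < Treg < Teff < anergic (259, 15.3%) and anergic < Teff < Treg < naive (201, 11.9%). These shares and orders were counted at promoters only, so they do not show a trait particular to promoters. Of the patterns given next, lowest in naive was the most frequent over all peaks as well. A promoter was given a pattern where 1 subset was higher, or lower, than each of the 3 others by the pairwise tests. At least 1 pattern was held by 2963 promoters, a number not counted over all peaks. Some held 2, highest in 1 subset and lowest in another, so the counts below overlap. By this rule 760 promoters were highest in naive (8.99% of all peaks), 198 in Teff (4.35%), 392 in anergic (7.44%) and 109 in Treg cells (1.63%). Lowest were 807 in naive (14.7% of all peaks), 69 in Teff (1.05%), 252 in anergic (5.73%) and 793 in Treg cells (4.1%). The promoters lowest in Treg were strong and CpG-rich (median signal 3116, median CpG ratio 0.842). Their number was 281 with total reads, 352 with factors from promoter peaks and 274 with quantile scaling. With the same scalings, those highest in Treg numbered 256, 210 and 315. Leaving out 1 library changed several of these counts by more than 1.5-fold. Highest in naive were 268 without naive 1 and 382 without naive 2, and lowest in naive were 523 without naive 1. Highest in Teff were 117 without Teff 2, and lowest in Teff were 40 without Teff 2 and 45 without Teff 1. Highest in anergic cells were 258 without anergic 3. Highest in Treg were 68 without Treg 1 and 69 without Treg 3. Lowest in Treg were 404 without Teff 2, 416 without Treg 2 and 493 without Teff 1.

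Promoters highest in naive cells belonged to genes of several kinds, named by the size of the smallest of their 3 differences. For this and each later pattern, the 5 were taken only from promoters whose libraries did not overlap those of the other subsets. Their separation is therefore set by the choice. Adamts14 encodes a secreted metalloprotease (chr10:61273148-61273634, centre 28 bases downstream of the start site and in a 5′ UTR). The Adamts14 signal was 424 and 508 in naive, 68.5, 91.7 and 98.3 in Teff, 76.3, 34.3 and 24.9 in anergic and 68.7, 179 and 79.8 in Treg cells. Both naive libraries lay above all others, with a log2 difference of Treg from naive of -2.21 ± 0.40 (adjusted p = 1.25e-04). Auts2, Clasp2, Fam240a and Tacc2 followed. Clasp2, a microtubule plus-end protein, had 487 ± 119 in naive, 124 ± 19.3 in Teff, 85.3 ± 24 in anergic and 68.5 ± 4.8 in Treg cells at a peak 565 bases upstream of the start site. Tacc2, of the coiled-coil centrosome proteins, had 942 ± 46.4 in naive, 277 ± 49.6 in Teff, 137 ± 49.5 in anergic and 272 ± 64.6 in Treg cells. None of the naive libraries overlapped those of another subset at these 5 promoters, as the naming rule required.

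The 5 promoters named as lowest in naive cells had little signal there. They were chosen for large differences, so this does not describe the whole class. The median signal of the 807 promoters lowest in naive, not split by subset, was 261. Gcnt1 encodes a glycosyltransferase that builds core 2 O-glycans (chr19:17356523-17356757, centre 27 bases downstream of the start site and in a 5′ UTR). The Gcnt1 signal was 0.812 and 0.774 in naive, 52.6, 89.2 and 102 in Teff, 186, 156 and 187 in anergic and 60.8, 55.3 and 73.4 in Treg cells. The naive values are those of 1 read per library, so no fold is given. The F test gave an adjusted p of 3.60e-11, which depends on these naive values too. Serpina3g, a serine protease inhibitor of activated T cells, had 2.79 ± 0.656 in naive, 129 ± 23.5 in Teff, 108 ± 13.2 in anergic and 84.1 ± 10.5 in Treg cells. Lilrb4a, an inhibitory receptor, had 3.12 ± 3.26 in naive, 118 ± 29.6 in Teff, 97.9 ± 28.7 in anergic and 68.1 ± 13.1 in Treg cells. Elavl2 and Snai2 stood at 2 units or fewer in both naive libraries and at 161 ± 44.8 and 112 ± 22.1 in anergic cells. At all 5 the other subsets lay above both naive libraries.

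The promoters highest in Teff cells included those of a chemokine and a granule protein of cytotoxic cells. Nkg7 (chr7:43436727-43437189, centre 180 bases upstream of the start site and outside annotated transcripts) carried the following signal. The Nkg7 signal was 13 and 2.32 in naive, 563, 522 and 315 in Teff, 81.2, 89.6 and 50.4 in anergic and 54.1, 97.9 and 53.2 in Treg cells. Every Teff library lay above all libraries of the other subsets, with a log2 difference of anergic from Teff of -2.64 ± 0.41 (adjusted p = 3.10e-05) and of Treg from Teff of -2.77 ± 0.41. Xcl1, the chemokine lymphotactin, had 13.3 ± 8.52 in naive, 451 ± 172 in Teff, 41.5 ± 5.8 in anergic and 64.9 ± 35.8 in Treg cells. Its log2 difference of Treg from Teff was -2.84 ± 0.40. Cd93, a C-type lectin-like receptor, had 14.6 ± 6.79 in naive, 203 ± 61.4 in Teff, 19.4 ± 13.7 in anergic and 18.6 ± 9.98 in Treg cells. Gcnt2, a glycosyltransferase, had 46.7 ± 19 in naive, 322 ± 101 in Teff, 36.7 ± 19.9 in anergic and 40.9 ± 12.7 in Treg cells. Sntb2, a syntrophin, had 11.9 ± 2.65 in naive, 236 ± 30.9 in Teff, 39 ± 16.5 in anergic and 24.6 ± 4.52 in Treg cells at a peak 935 bases upstream of the start site. Zbtb16, which encodes PLZF, the factor of innate-like T cells, was also highest in Teff. The Zbtb16 signal was 14.6 and 31.7 in naive, 1032, 961 and 733 in Teff, 181, 183 and 132 in anergic and 42.8, 68.1 and 30.4 in Treg cells. Its log2 difference of anergic from Teff was -2.45 ± 0.29 (adjusted p = 1.23e-06). Xcl1 and Zbtb16 are among the markers of CD8, NK and innate-like T cells listed above. Of these Cd8b1 stood at 1133 ± 23 in naive, 199 ± 24.9 in Teff, 197 ± 85.4 in anergic and 696 ± 73 in Treg cells, and 5 of 8 had no promoter peak. The part of such cells in the Teff promoters was not tested.

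Promoters lowest in Teff cells were few. Pgpep1l, a peptidase-like gene (chr7:68264326-68264982, centre 421 bases upstream of the start site and outside annotated transcripts), is given in full as 1 of the 5 named. The Pgpep1l signal was 986 and 897 in naive, 195, 226 and 252 in Teff, 540.5, 623 and 539 in anergic and 849, 941 and 949.6 in Treg cells. Its Teff libraries lay below all others, with a log2 difference of anergic from Teff of 1.34 ± 0.14 (adjusted p = 1.67e-07). Gucy1b1, a subunit of the nitric oxide receptor guanylate cyclase, had 219 ± 86.2 in naive, 88.6 ± 25.3 in Teff, 423 ± 57.5 in anergic and 388 ± 16.9 in Treg cells. Prodh, a mitochondrial proline dehydrogenase, had 189.6 ± 17.6 in naive, 81.6 ± 33.3 in Teff, 183 ± 13.8 in anergic and 292 ± 37.6 in Treg cells. Utp25 had 174 ± 68.1 in naive, 62.6 ± 5.6 in Teff, 162 ± 23.7 in anergic and 252 ± 25.9 in Treg cells. Col27a1, a fibrillar collagen, had 75.7 ± 0.899 in naive, 30.3 ± 13.3 in Teff, 65.5 ± 5.24 in anergic and 137 ± 7.62 in Treg cells.

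The promoters highest in anergic cells were led by Lratd1 (chr12:14151898-14152338, centre 80 bases upstream of the start site and outside annotated transcripts). The Lratd1 signal was 12.2 and 17 in naive, 65.8, 55.3 and 100.01 in Teff, 663, 436 and 513 in anergic and 56.3, 74.5 and 48.1 in Treg cells. The 3 anergic libraries lay above all others, with a log2 difference of 2.87 ± 0.29 from Teff (adjusted p = 1.08e-07). Il21 (chr3:37232557-37233162, centre 223 bases upstream of the start site and outside annotated transcripts) was also among the 5. The Il21 signal was 16.2 and 51.9 in naive, 116, 182 and 152 in Teff, 932, 664 and 623 in anergic and 33.8, 85.1 and 35.5 in Treg cells. Its anergic libraries lay above all others too, by 2.29 ± 0.36 from Teff (adjusted p = 2.97e-05) and 3.93 ± 0.36 from Treg cells on the log2 scale. Scg2, a granin of neuroendocrine vesicles, had 10.9 ± 12 in naive, 9.51 ± 3.24 in Teff, 173 ± 24.7 in anergic and 29.6 ± 10.6 in Treg cells. Fam20c, a secretory-pathway kinase, had 2.42 ± 2.33 in naive, 13.5 ± 14.3 in Teff, 82.3 ± 15.4 in anergic and 13.9 ± 9.46 in Treg cells. Hs6st3, a heparan sulfate sulfotransferase, had 10 ± 5.39 in naive, 26.8 ± 19.9 in Teff, 132 ± 20.1 in anergic and 42.2 ± 31.3 in Treg cells. These 2 were weak peaks whose difference of anergic from Treg lost its call without Treg 1 for Fam20c, and without anergic 3 or Treg 3 for Hs6st3. Cebpa, a C/EBP factor best known from myeloid cells, was highest in anergic cells as well (chr7:35118307-35119853, centre 213 bases upstream of the start site and outside annotated transcripts). The Cebpa signal was 117 and 134 in naive, 572, 546 and 752 in Teff, 2353, 2187 and 2279 in anergic and 603, 624 and 685 in Treg cells. The anergic libraries were separate from all others, with a log2 difference of 1.88 ± 0.14 from Teff (adjusted p = 1.78e-09). Of the myeloid markers listed above, Cd68 had 209 ± 49.7 in naive, 195 ± 24.9 in Teff, 349 ± 36.5 in anergic and 198 ± 59.2 in Treg cells. Its difference of anergic from Treg lost its call without the 3 shallowest libraries. Spi1 had 176 ± 0.73 in naive, 194 ± 31.3 in Teff, 127 ± 44.9 in anergic and 194 ± 54.7 in Treg cells, lowest in anergic cells, and did not pass the F test (adjusted p = 0.0794). Lyz2, Csf1r, Itgam and 4 others had no promoter peak. The part of myeloid cells in the anergic promoters was not tested.

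The promoters lowest in anergic cells included quiescence regulators. The internal Foxp1 promoter (chr6:99435084-99435556, centre 25 bases downstream of the start site and in a 5′ UTR) is given in full. The Foxp1 signal was 489 and 362 in naive, 226, 217 and 232 in Teff, 84.6, 60.1 and 43.7 in anergic and 462, 355 and 410.2 in Treg cells. The 3 anergic libraries lay below all others, with a log2 difference from Teff of -1.88 ± 0.22 (adjusted p = 7.22e-07) and from naive of -2.78 ± 0.24. Satb1, a chromatin organiser of thymocytes and naive T cells, had 629.6 ± 68.8 in naive, 329 ± 33.1 in Teff, 105 ± 23.2 in anergic and 319.9 ± 32.2 in Treg cells at chr17:51826341-51826860, centre 12 bases upstream of the start site and in an intron. Prf1, the gene of perforin, had 468 ± 30 in naive, 241 ± 33.4 in Teff, 42.4 ± 18 in anergic and 127 ± 23.8 in Treg cells, highest in naive and lowest in anergic cells, with Teff between. Rgs3, another brake on G protein signalling, had 209.6 ± 38 in naive, 86.1 ± 10.9 in Teff, 27 ± 6.56 in anergic and 116 ± 31.7 in Treg cells. Tspan9, a tetraspanin, had 402 ± 22.2 in naive, 138 ± 24.4 in Teff, 48.4 ± 28.4 in anergic and 181 ± 10.2 in Treg cells. Both had the same order of naive above and anergic below the rest.

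Lrrc32 led the promoters highest in Treg cells (chr7:98488828-98490647, centre 254 bases upstream of the start site and outside annotated transcripts). The Lrrc32 signal was 214 and 303 in naive, 172, 203 and 380.02 in Teff, 378, 302 and 401 in anergic and 2187, 2279.8 and 2332 in Treg cells. The Treg libraries were separate from all others, with a log2 difference of anergic from Treg of -2.66 ± 0.21 (adjusted p = 1.07e-08) and of Treg from Teff of 3.25 ± 0.21. Sdc4, a heparan sulfate proteoglycan of the cell surface, had 26.8 ± 11.6 in naive, 51 ± 26.7 in Teff, 39.4 ± 23.4 in anergic and 268 ± 53.4 in Treg cells. A promoter peak inside Coro2a, a coronin of the actin cytoskeleton, had 6.68 ± 3.7 in naive, 49.1 ± 7.86 in Teff, 54.4 ± 16.5 in anergic and 238 ± 16.4 in Treg cells. A peak 913 bases downstream of the start of the microRNA gene Mir7212 had 66.1 ± 3.91 in naive, 58.1 ± 17.4 in Teff, 156 ± 44.8 in anergic and 537 ± 75.6 in Treg cells. A second peak of Pgpep1l had 50 ± 20.2 in naive, 36.3 ± 17.7 in Teff, 87.6 ± 14.8 in anergic and 239 ± 45.9 in Treg cells. The upstream Pgpep1l peak was thus lowest in Teff and the downstream one highest in Treg. The promoters lowest in Treg by the largest factor were those of 5 genes. Nt5c2, a cytosolic nucleotidase, had 341 ± 15.5 in naive, 716 ± 105 in Teff, 335 ± 5.4 in anergic and 122 ± 6.72 in Treg cells. Il1rl2, a receptor for interleukin 36, had 332 ± 27.9 in naive, 349 ± 20 in Teff, 304 ± 31.8 in anergic and 138 ± 27.4 in Treg cells. Sbk2, a kinase gene, had 509.8 ± 26.9 in naive, 471 ± 18.4 in Teff, 341 ± 70.8 in anergic and 152 ± 16.9 in Treg cells. The Treg libraries lay below all others at each of the 5, as the naming rule required. Pou2af1, an octamer-factor coactivator, had 1319 ± 131 in naive, 759.5 ± 28.6 in Teff, 1310.05 ± 224 in anergic and 349 ± 43.4 in Treg cells. Cxcr6, the receptor of CXCL16, had 214 ± 26.3 in naive, 499 ± 68.4 in Teff, 258 ± 77.4 in anergic and 103 ± 12.6 in Treg cells. At Pou2af1 the log2 difference of Treg from Teff was -1.13 ± 0.14 (adjusted p = 2.16e-06).

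**Figure D3:**
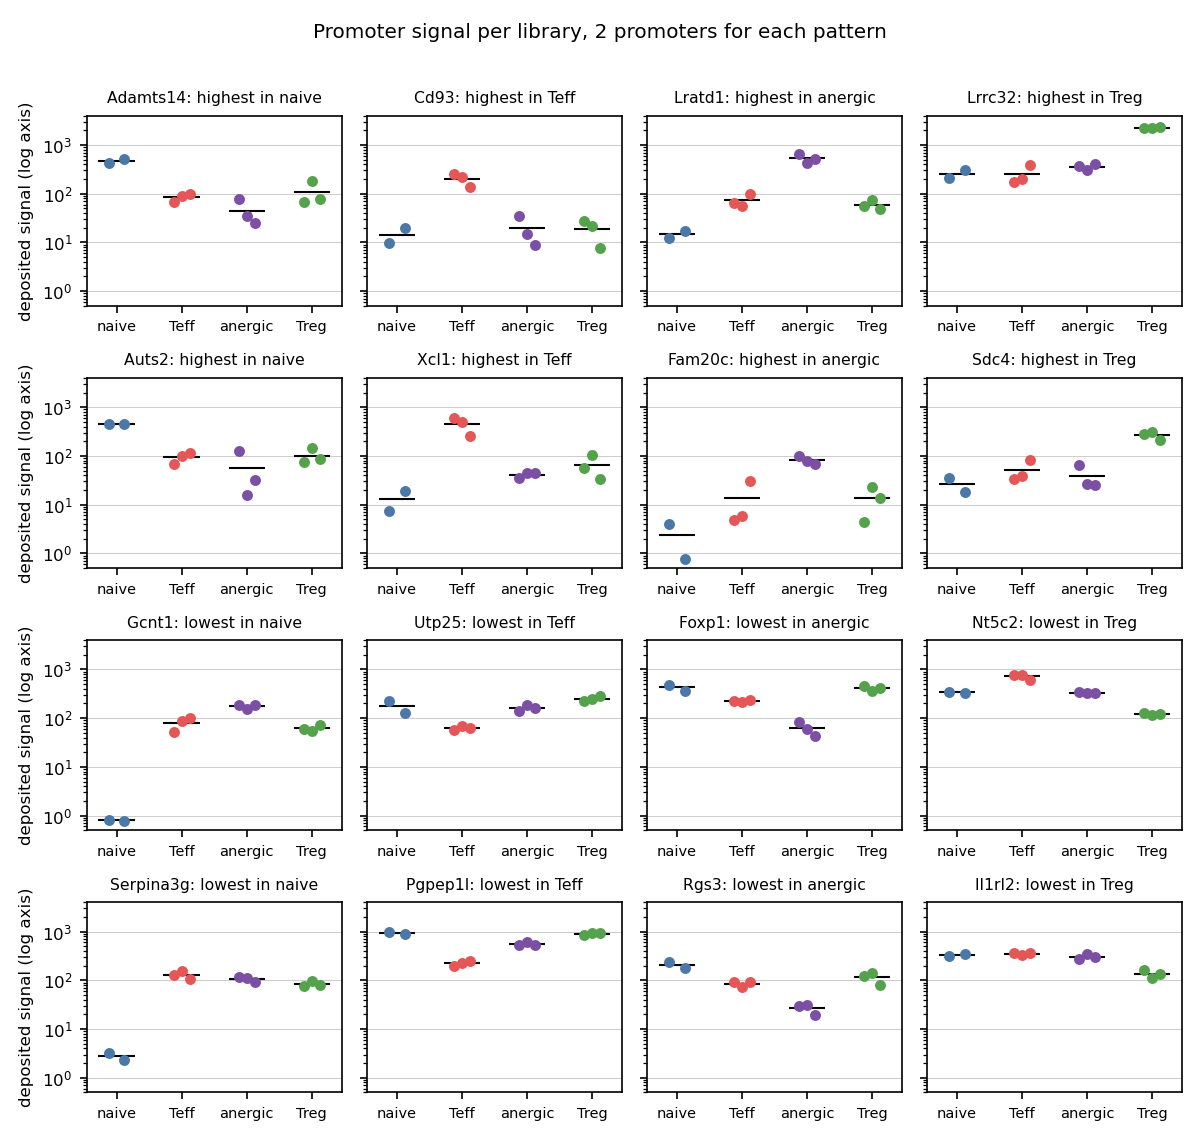
Deposited signal per library (y axis, log scale) at 2 promoters for each of the 8 patterns, in naive (blue, 2 libraries), Teff (red), anergic (purple) and Treg cells (green, 3 libraries each); points are libraries and lines are group means. In each panel the subset named in its title lies above or below all libraries of the others, as the naming rule required. At Lrrc32 the Treg mean is 2266 and the next highest, in anergic cells, is 360.4.

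Gene lists of T cell function are given beside the values of all promoters. Over all promoters 51.7% passed the F test and 33.1% were constant. The median log2 differences were 0.01 for anergic against Teff, 0.11 for anergic against Treg, -0.09 for Treg against Teff and -0.05, -0.06 and -0.13 for anergic, Teff and Treg against naive. Of 31 promoter peaks of Treg signature genes, 30 passed the F test and 1 was constant. There were 22 higher and 0 lower in Treg than in Teff (median log2 difference 0.81) and 26 higher and 1 lower in Treg than in naive (median 1.39). Itgb8, the integrin subunit that activates latent TGF-beta, was nearly the same in anergic and Treg cells (chr12:119237905-119238948, centre 150 bases upstream of the start site and outside annotated transcripts). The Itgb8 signal was 56.9 and 65 in naive, 170.3, 173 and 152 in Teff, 1195, 993 and 1069.98 in anergic and 1109, 981 and 1129 in Treg cells. The anergic and Treg libraries overlapped and all lay above Teff and naive. The log2 difference of anergic from naive was 4.13 ± 0.17 (adjusted p = 1.12e-14) and of anergic from Treg 0.02 ± 0.15. Ctla4, an inhibitory receptor of the CD28 family, had 10.5 ± 9.33 in naive, 42.9 ± 23.4 in Teff, 101 ± 19.6 in anergic and 152 ± 28.2 in Treg cells at a peak 866 bases into the gene. In anergic against Teff, 17 of the 31 were higher and 2 lower (median 0.37). The lists were drawn up with results of these data known, so their direction is not independent evidence.

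Of 23 promoter peaks of follicular helper genes, all 23 passed the F test and none was constant. There were 17 higher and 3 lower in anergic than in Teff (median 0.74), 17 and 2 in anergic against Treg (median 0.66) and 19 and 1 in anergic against naive (median 1.51). Il21 and Cebpa, above, and Il4 were the widest, but Il4, the Th2 and follicular helper cytokine, had its highest signal in Teff (chr11:53618344-53618647, centre 170 bases downstream of the start site and in a coding exon). The Il4 signal was 2.44 and 3.1 in naive, 217, 229.6 and 213 in Teff, 31.5, 58 and 41 in anergic and 9.01, 10.6 and 11.4 in Treg cells. All 3 Teff libraries lay above the rest, and naive and Treg cells lay lowest. Of 22 promoter peaks of inhibitory receptors and exhaustion regulators, 21 passed, with 15 higher and 1 lower in anergic than in Teff (median 0.67). Against Treg 6 were higher and 5 lower, a balance that turned under other scalings. Lag3, an inhibitory receptor that binds MHC class II, was highest in anergic cells (chr6:124911408-124912177, centre 87 bases upstream of the start site and outside annotated transcripts). The Lag3 signal was 143 and 89.8 in naive, 119.8, 121 and 150.01 in Teff, 589, 675 and 550.1 in anergic and 276, 379 and 225 in Treg cells. Its anergic libraries were separate from the rest, with a log2 difference from Treg of 1.07 ± 0.21 (adjusted p = 5.13e-04). Cd101, a member of the same list, went the other way, with 532 ± 26.5 in naive, 108 ± 18.4 in Teff, 73.5 ± 24.2 in anergic and 167 ± 12.3 in Treg cells.

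Of 23 promoter peaks of Th1 and cytotoxic genes, 22 passed and none was constant. There were 15 higher and 3 lower in Teff than in naive (median 1.20), 2 higher and 14 lower in anergic than in Teff (median -0.83) and 3 higher and 14 lower in Treg than in Teff (median -0.86). Ifng (chr10:118440611-118441398, centre 42 bases upstream of the start site and outside annotated transcripts) is the interferon gamma promoter. The Ifng signal was 25.2 and 31.7 in naive, 1261, 1107 and 887 in Teff, 542, 429 and 445 in anergic and 63.1, 138 and 44.3 in Treg cells. The 3 Teff libraries lay above all others, the anergic ones came next and did not overlap Treg or naive. The log2 difference of anergic from Teff was -1.19 ± 0.28 (adjusted p = 0.0019). Hopx, a homeodomain protein without DNA contacts of its own, was against the list's direction, with 12 ± 8.26 in naive, 50 ± 36.3 in Teff, 267 ± 58.7 in anergic and 535 ± 67.4 in Treg cells at its upstream promoter. Of 21 promoters of cytokines and TNF family ligands, 17 passed, with 12 higher and 0 lower in anergic than in Treg (median 0.41). Tnfsf13b, the B cell survival factor BAFF, had 5.55 ± 0.189 in naive, 67.9 ± 23.6 in Teff, 232 ± 43.8 in anergic and 50.4 ± 14.7 in Treg cells. Of 9 promoter peaks of Th2 genes 8 passed. Among them Areg, the growth factor amphiregulin, had 49 ± 10.7 in naive, 118 ± 27.9 in Teff, 639 ± 86.4 in anergic and 398 ± 71.5 in Treg cells. Of 6 of Th17 genes 4 passed. Among them Rora, a nuclear receptor, had 1642 ± 118 in naive, 3691 ± 197 in Teff, 2787 ± 174 in anergic and 2142 ± 149 in Treg cells.

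Of 40 promoter peaks of naive and quiescence genes, 33 passed and 5 were constant. There were 2 higher and 26 lower in anergic than in naive (median -0.77), 0 higher and 22 lower in Teff than in naive (median -0.66) and 1 higher and 11 lower in Treg than in naive (median -0.13, the same as all promoters). In Treg against Teff, 17 were higher and 2 lower (median 0.36). Ccr7, the receptor that guides cells into lymph nodes, had 98.2 ± 14 in naive, 47.7 ± 24.1 in Teff, 24.3 ± 1.16 in anergic and 162 ± 35.4 in Treg cells at a peak 963 bases upstream, its mean being highest in Treg cells. The majorities given for the Treg, follicular helper, Th1, cytokine and naive lists kept their direction under each scaling tried, except where said. Of 39 promoter peaks of chemokine receptors, integrins and migration genes 34 passed and 1 was constant, without a common direction in anergic against naive (12 higher and 13 lower).

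Lists of signalling and death genes were mixed. Of 46 promoter peaks of anergy genes and negative regulators of the T cell receptor, 30 passed and 7 were constant, with 8 higher and 8 lower in anergic than in Teff (median 0.01, the same as all promoters). Rgs16 (chr1:153739540-153740616, centre 275 bases upstream of the start site and outside annotated transcripts) was high in both anergic and Treg cells. The Rgs16 signal was 79.6 and 146 in naive, 312, 331 and 383 in Teff, 1519, 1277 and 1266 in anergic and 1326, 1237 and 1234 in Treg cells. The anergic and Treg libraries overlapped and lay above the Teff and naive ones, with a log2 difference of anergic from Teff of 1.98 ± 0.17 (adjusted p = 1.70e-08). Nedd4, a ubiquitin ligase of this list, had 430.4 ± 33 in naive, 588 ± 17.9 in Teff, 171 ± 24.3 in anergic and 346 ± 25.1 in Treg cells. Of 22 promoter peaks of NR4A, EGR and NFAT factors 18 passed and 6 were constant. Egr4, an immediate early factor, had 59.3 ± 6.95 in naive, 319 ± 57.4 in Teff, 743 ± 125 in anergic and 278 ± 18.9 in Treg cells. Nr4a2, an orphan nuclear receptor, had 126 ± 27.7 in naive, 212 ± 53.8 in Teff, 311 ± 65.3 in anergic and 457 ± 25.2 in Treg cells. Of 21 of AP-1, BATF, MAF and IRF factors 13 passed and 6 were constant. Maf, a factor of follicular helper and Il10-producing cells, had 1958 ± 1.67 in naive, 4528 ± 132 in Teff, 5569 ± 309 in anergic and 3530.1 ± 133 in Treg cells. Atf3, a stress-induced factor, had 696 ± 12.5 in naive, 2225 ± 367 in Teff, 2103 ± 341 in anergic and 1814 ± 264 in Treg cells. Of 38 of proximal T cell receptor signalling 20 passed and 5 were constant. Lck, the kinase of the CD4 coreceptor, had 1825 ± 199 in naive, 1227 ± 96.9 in Teff, 1092 ± 232 in anergic and 787 ± 31.8 in Treg cells at 1 of its promoter peaks. Another Lck promoter peak was called in the opposite direction, with log2 differences from naive of 0.82 in anergic and 0.89 in Teff cells. Of 45 of cytokine and TNF family receptors 35 passed and 5 were constant. Il12rb2, the interleukin 12 receptor chain, had 118 ± 15.2 in naive, 405 ± 71.3 in Teff, 76.9 ± 27.2 in anergic and 120.5 ± 17.7 in Treg cells. Il1r2, a decoy receptor for interleukin 1, had 19.1 ± 2.89 in naive, 64.5 ± 14.5 in Teff, 311 ± 10.7 in anergic and 179 ± 30.4 in Treg cells. Of 48 of the BCL2 family and cell death genes 24 passed and 13 were constant. Casp4, an inflammatory caspase, had 28.6 ± 0.973 in naive, 378 ± 45.8 in Teff, 1007 ± 202 in anergic and 318 ± 35.5 in Treg cells.

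The promoters of Bcl2l11 and Batf were described for every peak. Bcl2l11, the gene of the pro-apoptotic protein BIM, had 2 strong promoter peaks. The first lay at chr2:128125371-128126707, centre 1 bases downstream of the start site and in a 5′ UTR. The Bcl2l11 signal was 3039 and 3335 in naive, 2494, 2774 and 2353 in Teff, 1346, 1399 and 1653 in anergic and 2680.3, 2631 and 2831 in Treg cells. Its anergic libraries lay below all others, with a log2 difference from naive of -1.12 ± 0.12 (adjusted p = 3.88e-08) and from Treg of -0.89 ± 0.10. The second, at chr2:128126838-128128210, had 3778 ± 300.2 in naive, 3292 ± 334 in Teff, 1980.1 ± 121 in anergic and 2790.3 ± 376 in Treg cells, again lowest in anergic cells. Batf, an AP-1 family factor, had 1073 ± 183 in naive, 1131 ± 243 in Teff, 1299 ± 57 in anergic and 926 ± 83.8 in Treg cells at its main promoter peak (chr12:85686305-85687322). Its log2 difference of anergic from Treg was 0.49 ± 0.14 (adjusted p = 0.00931). This call was lost without Treg 2 and without the 3 shallowest libraries. Its second peak (32.9 ± 1.68 in naive, 33.2 ± 7.67 in Teff, 49.8 ± 11.8 in anergic and 45.7 ± 17.5 in Treg cells) did not pass the F test (adjusted p = 0.459).

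The promoters of the genes whose proteins were used for sorting are a description of the gates and not a finding. Nt5e, which encodes CD73, had 438 ± 12.7 in naive, 931 ± 61.4 in Teff, 1409 ± 132 in anergic and 1154 ± 124 in Treg cells. Izumo1r, which encodes FR4, had 649.6 ± 149 in naive, 1072 ± 232 in Teff, 2270.4 ± 459 in anergic and 1676 ± 274 in Treg cells. Nrp1 had 281 ± 30.9 in naive, 355 ± 20.8 in Teff, 669 ± 61.8 in anergic and 625 ± 59.6 in Treg cells at its start site. Il2ra, which encodes CD25, had 349.8 ± 55.7 in naive, 424 ± 56.8 in Teff, 284 ± 5.34 in anergic and 630.4 ± 74.7 in Treg cells. Cd44 had 206 ± 38.4 in naive, 401 ± 35.9 in Teff, 539 ± 34.2 in anergic and 395 ± 36.2 in Treg cells at the stronger of its 2 peaks. Cd4 had 250.4 ± 10.5 in naive, 211 ± 55.1 in Teff, 225 ± 22.8 in anergic and 196 ± 42.2 in Treg cells and did not pass the F test (adjusted p = 0.467).

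The counts for lists of housekeeping genes follow, as promoters constant and changed by at least 2-fold. Of 78 promoter peaks of cytosolic ribosomal proteins 56 were constant and 2 changed by at least 2-fold, and of 35 of proteasome subunits 21 and 0. Among 51 peaks of splicing factors the counts were 30 and 2, of 50 of RNA polymerase II and its initiation factors 27 and 1, and of 58 of translation initiation factors 27 and 3. Promoters of mitochondrial genes gave 36 constant and 4 changed of 85 of the respiratory chain and ATP synthase and 27 and 0 of 84 of mitochondrial ribosomal proteins. The 33 of aminoacyl tRNA synthetases gave 13 and 0. Of 51 of the cell cycle and DNA replication 19 were constant and 5 changed, of 32 of glycolysis and nutrient transport 12 and 7, and of 59 of interferon-stimulated genes 10 and 10. The counts over all 12346 promoters were 4084 and 1694. Some promoters in these lists did differ. Hif1a, the hypoxia factor, had a peak at chr12:73901174-73901461 with 9.23 ± 6.48 in naive, 30.5 ± 16.2 in Teff, 144 ± 20 in anergic and 93.2 ± 15.5 in Treg cells. Cox7a1, a cytochrome oxidase subunit of muscle, had 209 ± 17 in naive, 565 ± 31.4 in Teff, 673 ± 24.6 in anergic and 525 ± 11.9 in Treg cells. Psmb8, an immunoproteasome subunit, had 935 ± 97.6 in naive, 1505 ± 144 in Teff, 1539 ± 136 in anergic and 1081 ± 123 in Treg cells. Of 29 promoter peaks of replication-dependent histone genes 14 were higher and none lower in anergic than in naive (median 0.26). Other scalings gave 14 to 16 higher and 0 to 2 lower. These genes lie in clusters and are near-identical copies, so reads may not be assigned with certainty. Of 323 promoter peaks of Zfp genes 150 passed and 100 were constant. Zfp939 had 61.5 ± 1.53 in naive, 211 ± 17.8 in Teff, 632 ± 150.4 in anergic and 217 ± 21.1 in Treg cells.

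**Figure D4:**
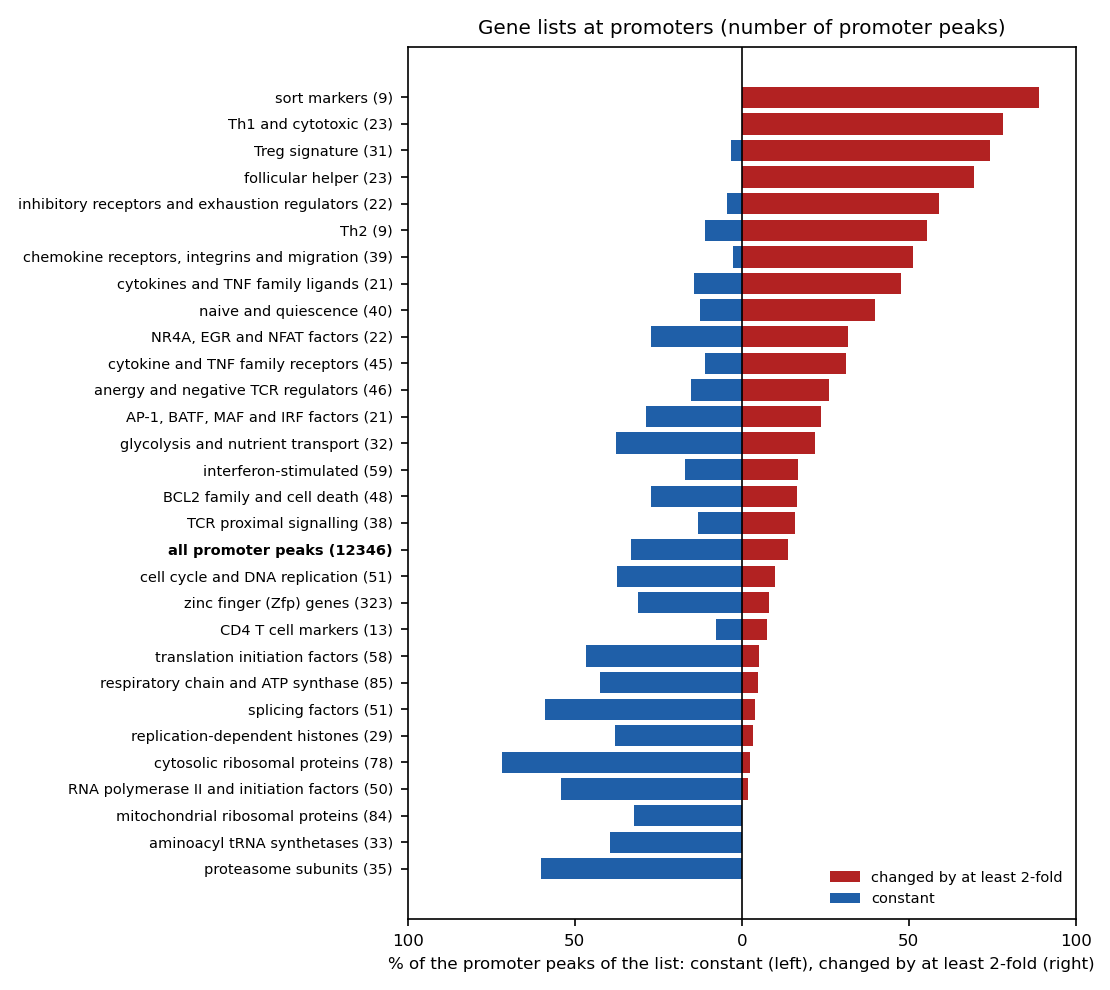
Share of the promoter peaks of each gene list (y axis, number of peaks in parentheses) that changed by at least 2-fold (red, right) or were constant (blue, left), in % of the list (x axis); lists with fewer than 9 promoter peaks are not drawn. The lists run from the largest share changed at the top to the smallest at the bottom, where the ribosomal, proteasome and tRNA synthetase lists lie, and all promoters stand at 13.7% and 33.1%.

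Genes with alternative promoters could move at one start site and not at another. Among 886 pairs of promoter peaks of 579 genes whose centres were at least 1000 bases apart, the log2 ratio of the 2 peaks differed among the subsets for 384 pairs (43.3% of the pairs tested) of 271 genes. For 75 genes the 2 peaks were called in opposite directions in at least 1 comparison. This count was made under the deposited scaling only. Of the 75 genes, 33 had such a pair in Treg against naive, where the direction of small shifts depends on the scaling. Rcan1 is given first because 1 of its promoters was constant, a choice made after its values were seen. The Rcan1 signal was 4448 and 4649 in naive, 3999, 4202 and 4222 in Teff, 4261, 4492 and 4774 in anergic and 3929, 3691 and 4114 in Treg cells. This outer promoter (chr16:92465656-92466673) was constant, with all 4 groups near each other. The Rcan1 signal was 0.812 and 17.8 in naive, 18, 21.5 and 43.3 in Teff, 189, 218 and 182 in anergic and 49.6, 97.9 and 74.7 in Treg cells. The inner promoter (chr16:92400055-92400437), whose sequence is printed above, was highest in all 3 anergic libraries. The log2 ratio of inner to outer rose by 2.76 from Teff to anergic cells. The adjusted p of the F test on the ratio was 0.000773. Naive values near 0 depend on the unit added before taking logs, so ratios against naive are not given. The F tests on the ratio, at Rcan1 here and at Clcn3 below, use such naive values too.

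Clcn3, a chloride and proton exchanger of endosomes, had an inner promoter at chr8:60954698-60954934 with 2.79 ± 0.656 in naive, 21.5 ± 3.02 in Teff, 155 ± 24.9 in anergic and 64.5 ± 18.1 in Treg cells. Its outer one, at chr8:60982698-60984096, had 7009 ± 400.3 in naive, 5807 ± 294 in Teff, 5350.4 ± 266 in anergic and 5062 ± 376 in Treg cells. The inner one rose where the outer one fell against naive, and the ratio differed with an adjusted p of 4.17e-07. Hopx had 407 ± 5.75 in naive, 601 ± 33.4 in Teff, 607 ± 86.6 in anergic and 819 ± 79.3 in Treg cells at its downstream promoter and, at the upstream one, the wider range given above (adjusted p of the ratio 0.000143). Furin, the proprotein convertase, had 797 ± 238 in naive, 1459 ± 196 in Teff, 976 ± 64.1 in anergic and 1113 ± 39 in Treg cells at the stronger promoter. At the weaker it had 4.01 ± 2.38 in naive, 56.2 ± 20.7 in Teff, 109.7 ± 11 in anergic and 88.9 ± 6.85 in Treg cells. Akap7, an anchoring protein of protein kinase A, had 465 ± 62.6 in naive, 474 ± 27.2 in Teff, 529 ± 45.3 in anergic and 579 ± 55.2 in Treg cells at one promoter. At the other it had 4.82 ± 3.53 in naive, 55.8 ± 12.6 in Teff, 91.9 ± 15.5 in anergic and 148 ± 15.5 in Treg cells. Coro2a had 1275 ± 26.1 in naive, 1732 ± 113 in Teff, 1504 ± 68.6 in anergic and 2662 ± 234 in Treg cells at its outer promoter, highest in Treg like the inner one, but over a narrower range. Other genes whose 2 promoters were called in opposite directions, named after their values were seen, were Ncald, Thrb, Arhgef18 and Bmf. At Bmf, a pro-apoptotic BH3-only gene, 1 promoter had a log2 difference of anergic from naive of -0.83 and another of 1.83.

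**Figure D5:**
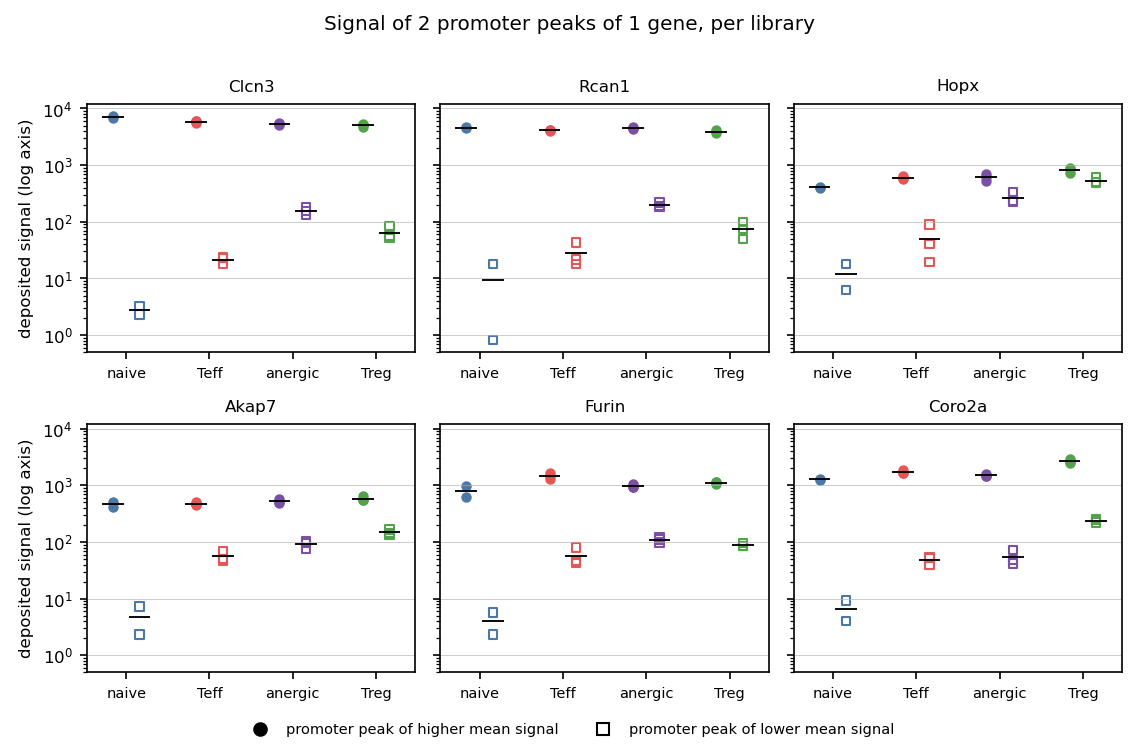
Deposited signal per library (y axis, log scale) of 2 promoter peaks of the same gene in 6 genes, by subset (x axis; colours as naive blue, Teff red, anergic purple, Treg green); filled circles are the peak of higher mean signal, open squares that of lower mean signal, and lines are group means. At Rcan1 the circles stay between 3691 and 4774, while the squares rise to a mean of 196 in anergic cells.

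A constant promoter did not mean a constant gene neighbourhood. Each gene was classed here by its promoter peak of highest mean signal alone, so a weaker promoter of the same gene could be of another class. Of 4031 genes whose strongest promoter peak was constant, 2149 had other peaks for which they were the nearest gene. Of these 6785 distal peaks 50.6% changed by at least 2-fold, against 69.3% of the 2427 distal peaks of genes with a changed promoter and 55.1% for all genes with a promoter peak. At least 1 such distal peak was found for 63.1% of the genes with a constant promoter and 81.0% of those with a changed one. Arhgef3, a guanine nucleotide exchange factor, had 29 distal peaks of which 26 passed the F test. Of these 19 were higher in anergic than in naive and 1 lower. Its promoter was constant (chr14:27335318-27337599, centre 421 bases downstream of the start site and in an intron). The Arhgef3 signal was 2650.3 and 2688 in naive, 2925, 3242 and 3120.2 in Teff, 2936, 3249 and 3389 in anergic and 3028, 3374 and 3277 in Treg cells. The log2 difference of Treg from naive at that promoter was 0.27 ± 0.10. Wwox, an oxidoreductase gene at a fragile site, had 25 of 25 distal peaks called and a promoter of 4731 ± 244 in naive, 4607 ± 148 in Teff, 5131 ± 61.1 in anergic and 4154 ± 677 in Treg cells. Btg1, an antiproliferative gene of quiescent lymphocytes, had 24 of 30 called and a promoter of 13669.7 ± 361 in naive, 11164 ± 781 in Teff, 11696 ± 797 in anergic and 11107 ± 1153 in Treg cells. Mbp, Fam107b and Vgll4 had 25 of 26, 22 of 24 and 20 of 27. These 6 genes were named for having the most distal peaks called, so their counts are high by choice. The F test was passed by 69.8% of the distal peaks of genes with a constant promoter. Over all genes with a promoter peak the share was 73.1%. Across 2174 genes with at least 3 distal peaks, the correlation between the log2 difference of the promoter and the median of the distal peaks was 0.41 to 0.47 over the 6 comparisons (Pearson's r, a description across genes, which share libraries).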

How the data were processed

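Per the labels, ATAC-seq libraries were made from 50000 sorted cells and sequenced with 50-base reads. The submitters' processing notes name mm10, Trimmomatic 0.38.1, Bowtie2 2.3.3.1, SAMtools 1.13, Genrich 0.5, DiffBind 2.10.0, HOMER 4.11.1 and deepTools 3.5.1.0.1, without their order or role. The deposited table gives 1 signal per peak and library over 1 shared set of 38509 peaks, so peaks were not called separately per library in this table. Dividing the deposited signal of each library by its smallest value gave whole numbers for 100% of values (within 0.01), so each value is a read count times 1 factor per library (0.527 to 2.13); how the authors set the factors is not stated in the sources used here. Deposited starts count from 0 and are printed here from 1.

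Log2 of signal plus 1 was fitted with limma 3.58.1 (lmFit, eBayes with trend; R 4.3.3) on all 11 libraries by group, over the 38493 peaks that passed edgeR's filterByExpr on the recovered reads (16 removed). Moderated F tests and 6 pairwise contrasts were adjusted by Benjamini-Hochberg over all of them, with a threshold of 0.05. Start sites, sequences and annotation came from RefSeq on GRCm38 (45756 transcripts). The test was checked on simulated data. The members and gene lists were chosen with earlier results of these data known. Promoters named in the text were all peaks of the sort genes, Batf and Bcl2l11; for each pattern the 5 with the largest smallest difference, no overlap of libraries, a mean signal of at least 50 in their highest group and no predicted gene name; up to 3 per gene list by range of means; 10 constant ones; and 6 genes each for alternative promoters and distal peaks. Some promoters that this rule names are not reported here. Alternatives were edgeR 4.0.16 on recovered reads, DESeq2 1.42.0 size factors, 2 other scalings, a GC correction, a pseudocount of 10, no filter, a replicate block, windows of 500 and 2000 bases and leaving out each library. Quantile scaling, leaving out the 3 shallowest libraries, and the share of reads without the peak of highest signal were added after seeing the data. Peaks on X, Y and unplaced contigs entered the fit and are not described. The RNA-seq that the study also describes is not analysed here.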

Additional observations from a re-analysis of the deposited data

How the results depend on the processing

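Of 6388 promoters that passed the F test, 79.6% to 99.8% also passed under each alternative that kept the peak set and all libraries, and of 4084 constant promoters 90.9% to 99.9% stayed so. Several counts moved by more than 1.5 times. With total reads, factors from promoter peaks and quantile scaling, the higher counts were 1325, 1652 and 1464 for anergic against Treg, 2365, 2215 and 2026 for Treg against naive and 1255, 1132 and 1431 for Treg against Teff; the lower counts were 1550, 1322 and 1636, 1866, 2036 and 1783, and 1303, 1441 and 1366. Promoters highest in Treg were 256, 210 and 315, and lowest in Treg 281, 352 and 274, with 489 by edgeR, 481 with the GC correction and 521 with the replicate block and GC correction. Quantile scaling gave 394 promoters lowest in anergic, the window of 2000 bases 304 highest in Teff, the wider bound 8617 constant promoters and the 2-fold limit 1694 changed ones. For these moves the cause was not tested, except that a wider window, a wider bound and a fold limit change the count by construction.

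With 1 library left out, and a lone naive library assumed to vary like the other groups, the counts ran as follows: differing among the groups 5050 to 6433, constant 2777 to 4338. For anergic against Teff they ran from 651 to 1095 higher and 647 to 1048 lower, for anergic against Treg 1578 to 2743 and 629 to 878, for anergic against naive 1317 to 1935 and 1248 to 2224, for Teff against naive 954 to 1602 and 649 to 1860, for Treg against naive 886 to 1426 and 1981 to 3595, and for Treg against Teff 515 to 768 and 1137 to 2344. Highest and lowest were 268 to 799 and 523 to 814 in naive, 117 to 191 and 40 to 75 in Teff, 258 to 378 and 187 to 256 in anergic, and 68 to 114 and 404 to 996 in Treg. Genes whose promoter peaks moved apart were 216 to 291. The p of the promoter share of reads ran from 0.108 to 0.646.

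Whether the replicate numbers pair the samples was not settled. Of 15 same-numbered pairs, 4 had a correlation of their deviations above 0.1 (range -0.133 to 0.176). Of 11 libraries, 7 correlated best with one of their own number. The highest correlations, 0.233 and 0.195, joined Teff 3 with Treg 2 and with anergic 1, the 3 shallowest libraries. The fit with the replicate block gave 6500 promoters that differ among the groups, 3989 constant and 248 genes whose promoter peaks moved apart, and changed no other count by over 1.5 times. Of 164 named results under 22 settings, 12 lost their call under at least 1 setting and 2 gained one. Another 13 moved by more than the SE of their differences, mostly under other scalings. Such moves were scored only at promoters named as constant or as constant with distal peaks called. They are therefore not a share of all named results. Most of the promoters scored in this way moved, and only Impact, Zfp950 and Mbp did not. The largest difference at Sp1 was 0.12 to 0.39 on the log2 scale, at Klf13 0.25 to 0.42 and at Cic 0.12 to 0.38. The outer Rcan1 promoter, constant in the text, changed sign in Treg against naive to 0.0131 with quantile scaling. Depth limits the weakest promoters, where 1 read is a signal of 0.527 to 2.13.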
